A study of Mus musculus with 16 samples.

Results

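The mitochondrial protein import machinery carries nuclear-encoded proteins from the cytosol into mitochondria. Its members were taken as the probes whose platform gene symbol begins with Timm or Tomm and a number, or is Pam16, Dnajc19, Grpel1, Grpel2, Samm50, Mtx1, Mtx2, Chchd4, Hspa9 or Timmdc1. This gave 52 of the 25697 probes, for 32 genes. The choice was by gene symbol alone, but it was made with earlier results of these data known. A filter on dim probes, described with the results, left 39 of these probes and 24 of these genes for testing.

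The groups were MommeD1 females, wildtype females, MommeD1 males and wildtype males, with 4 arrays each and 16 in all. Total RNA came from FVB/n mouse embryos at embryonic day 9.5 and was hybridized to Illumina Mouse Ref-8 BeadChips. MommeD1 embryos were homozygous for a nonsense allele of Smchd1, the gene of a chromatin protein of the SMC family needed for X inactivation, and wildtype embryos were Smchd1 +/+. All embryos came from matings of heterozygous parents, so the mothers of every group carried 1 mutant allele. The design asked how expression depends on Smchd1 genotype and on sex. Each of the 2 chips held 2 arrays of every group. The labels call the 4 arrays of a group replicates without naming the embryo or litter, so the p-values measure the spread between these arrays.

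Most mitochondrial proteins are made in the cytosol and enter through the TOM complex of the outer membrane. The SAM complex then inserts barrel-shaped proteins into the outer membrane, and small TIM chaperones carry hydrophobic proteins through the intermembrane space to the TIM22 complex. Proteins with an N-terminal targeting sequence pass through the TIM23 complex and are pulled into the matrix by the PAM motor, whereas the MIA relay oxidizes and so traps small cysteine-rich proteins. The small TIM proteins are themselves substrates of the MIA relay. In humans, loss of the small TIM protein TIMM8A causes a syndrome of deafness and dystonia, and loss of the motor protein DNAJC19 causes cardiomyopathy with ataxia.

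Timm8b, a small TIM chaperone, was the import gene that passed the test in both sexes. Its sequences are shown because its probes differed and because it starts close to a neighbouring gene. Whether the start region bears on the Timm8b difference was not tested. Timm8b lies on chromosome 9 (chr9:50603901-50605320, GRCm38.p6, as are all coordinates here). The first probe below is the brighter and stands for the gene. Both probes are annotated in the coding sequence, and the capitals mark the stop codon in the first and the start codon in the second. The second probe was matched to chr9:50603952-50604001 on the plus strand. In the promoter, chr9:50603651-50603930 on the plus strand from RefSeq, capitals mark matches to the 3 motifs named next.
ILMN_2821014: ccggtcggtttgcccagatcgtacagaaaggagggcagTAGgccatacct
ILMN_2667219: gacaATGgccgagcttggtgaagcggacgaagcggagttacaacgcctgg
Timm8b promoter: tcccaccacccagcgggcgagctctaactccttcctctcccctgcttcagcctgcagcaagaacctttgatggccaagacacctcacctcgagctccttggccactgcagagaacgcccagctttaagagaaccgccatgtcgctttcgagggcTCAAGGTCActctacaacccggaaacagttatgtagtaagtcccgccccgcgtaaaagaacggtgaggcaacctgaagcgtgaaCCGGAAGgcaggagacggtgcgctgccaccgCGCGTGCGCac

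The capitals in the promoter mark, in order, TCAAGGTCA (the letters bound by estrogen-related receptors) at position -96 relative to the transcript start, CCGGAAG (ETS factors, among them GABPA) at -12, and GCGCANGCG on the reverse strand (the core of the NRF1 site) at 19. A search of both strands of the windows from 250 bases before to 50 after each start gave 28 of the 32 import genes a promoter. TCAAGGTCA was found in 1 of these 28 genes, Timm8b (3.57%), and in 0.466% of the 27025 genes with a promoter. The Timm8b match lies within the span of its neighbour Sdhd (chr9:50596340-50603849), so it is not particular to Timm8b. CCGGAAG was found in 13 import genes (46.4%) and in 9.93% of all genes. GCGCANGCG was found in 5 import genes (17.9%) and in 7.03% of all genes. AAGATGGCG, the letters of a YY1 site, was found in Mtx1 and Timm50 (7.14% of the import genes) and in 1.64% of all genes. These matches describe letters in a window and were not tested as binding sites, and Timm8a1, Tomm6, Dnajc19 and Timm17b held none of the 4 motifs.

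The values were log2 signals as the authors deposited them, with nearly the same distribution on every array. Smchd1 itself was at 7.34 to 7.60 in MommeD1 females and 9.78 to 9.98 in wildtype females. It was at 7.35 to 7.58 in MommeD1 males and 9.72 to 9.88 in wildtype males, so every array matched its labelled genotype. Probes with a value over 7 on 4 or more of the 16 arrays were tested. This left 6999 genes, 236 of them X-linked, each represented by its brightest kept probe. Array medians were 6.34 throughout. Across arrays, 3 embryos carried more yolk sac endoderm transcripts than the rest (MommeD1 female 2, MommeD1 male 1 and wildtype male 3), with a mean log2 excess over 10 of 18 listed markers of 2.31, 1.30 and 1.26. The summed linear signal of these 10 markers ranged from 1279 to 15790 in MommeD1 females and from 1658 to 4436 in wildtype females, and from 1237 to 7257 in MommeD1 males and from 1256 to 7030 in wildtype males. All 10 had a positive difference in females (median 0.35) and 4 of 10 in males (median -0.05), none past the test. Of 11 tested primitive erythroid markers, 3 had a positive difference in females and 10 in males (medians -0.03 and 0.25), and 1 passed the test, Tfrc, which was lower in females (-0.38 ± 0.10, adjusted p = 0.0240, limma) and in the average of the sexes. Of 10 listed genes of the embryo body 6 were kept, whereas Pax6, Pax3 and Cdh5 did not pass the filter. Of these 6, Myl7, a cardiac gene, was higher (0.56 ± 0.09) and Prrx1, a mesenchymal gene, lower (-0.41 ± 0.09) in MommeD1 females. The summed linear signal of the 6 genes, which the brightest dominate, ranged from 4948 to 5178 in MommeD1 females and from 3819 to 4485 in wildtype females. These ranges did not overlap. In males it ranged from 4406 to 4991 in MommeD1 and from 3967 to 4620 in wildtype embryos. The mean log2 excess over the 6 genes did overlap in females, at -0.15 to 0.12 in MommeD1 and -0.25 to 0.12 in wildtype. The difference was above 0 for 3 of 6 genes in each sex (median -0.01 in both). Of 7 listed maternal decidua genes 2 were kept. In RNA from whole embryos, more cells of a type and more RNA per cell cannot be told apart.

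Genes encoding import proteins moved in both directions, and most did not pass the test. In females, 5 of the 24 tested genes were higher in MommeD1 embryos (Timm8a1, Timm8b, Tomm6, Dnajc19 and Timm17b) and 1 was lower (Mtx1), at an adjusted p under 0.05 in limma's moderated test over all genes. Timm17b passed the filter only through the 4 MommeD1 female arrays, all its other arrays lying under 7. Its place among the tested genes thus depends on the group in which it was high. It is no support for this count or for any count below that includes it. Of all 6999 genes, 4.14% were called higher and 3.33% lower in this comparison, and of the X-linked genes 29.7% were called higher. In males, 1 of the 24 (Timm8b) was higher and 0 were lower, where 0.100% of all genes were called higher. With the effects of the sexes averaged, 6 of 24 were higher, with Timm10b in addition to those called in females, and Mtx1 was lower. The background of the averaged comparison was 5.74% higher and 5.26% lower, and it shares its arrays with the comparisons in each sex. Unadjusted p-values under 0.05 were found for 8 import genes in females (33.3%, against 25.0% of all genes), 3 in males (12.5%, against 11.2%) and 8 in the average (33.3%, against 27.3%).

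Over the 24 genes the median log2 difference was 0.04 in females and 0.06 in males, against -0.01 and 0.00 over all genes tested. The differences were above 0 for 15 of 24 import genes in females (62.5%) and 20 of 24 in males (83.3%), against 47.6% and 50.4% of all genes. The lean was not particular to import genes. In females and males these shares were 71.6% and 80.6% of tested respiratory chain genes, and 57.1% and 70% of mitochondrial ribosomal proteins. The groups did not overlap for 9 of 24 import genes in females, where 15.1% of all genes did not overlap, and for 2 of 24 in males, where 6.32% of all genes did not. Timm17b is in both counts and supports neither. The female and male differences share no array, but their p-values share an estimate of the spread from all 16 arrays. Without the 3 embryos high in yolk sac transcripts, the females had 3 calls (Timm8a1, Timm8b and Tomm6), and Dnajc19, Mtx1 and Timm17b, with differences of 0.23, -0.22 and 0.19, had adjusted p-values of 0.0501, 0.0591 and 0.0950. Their differences with all arrays were 0.23, -0.24 and 0.18. The part of erythroid and embryo body transcripts in the import differences was not tested.

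**Figure D1:**
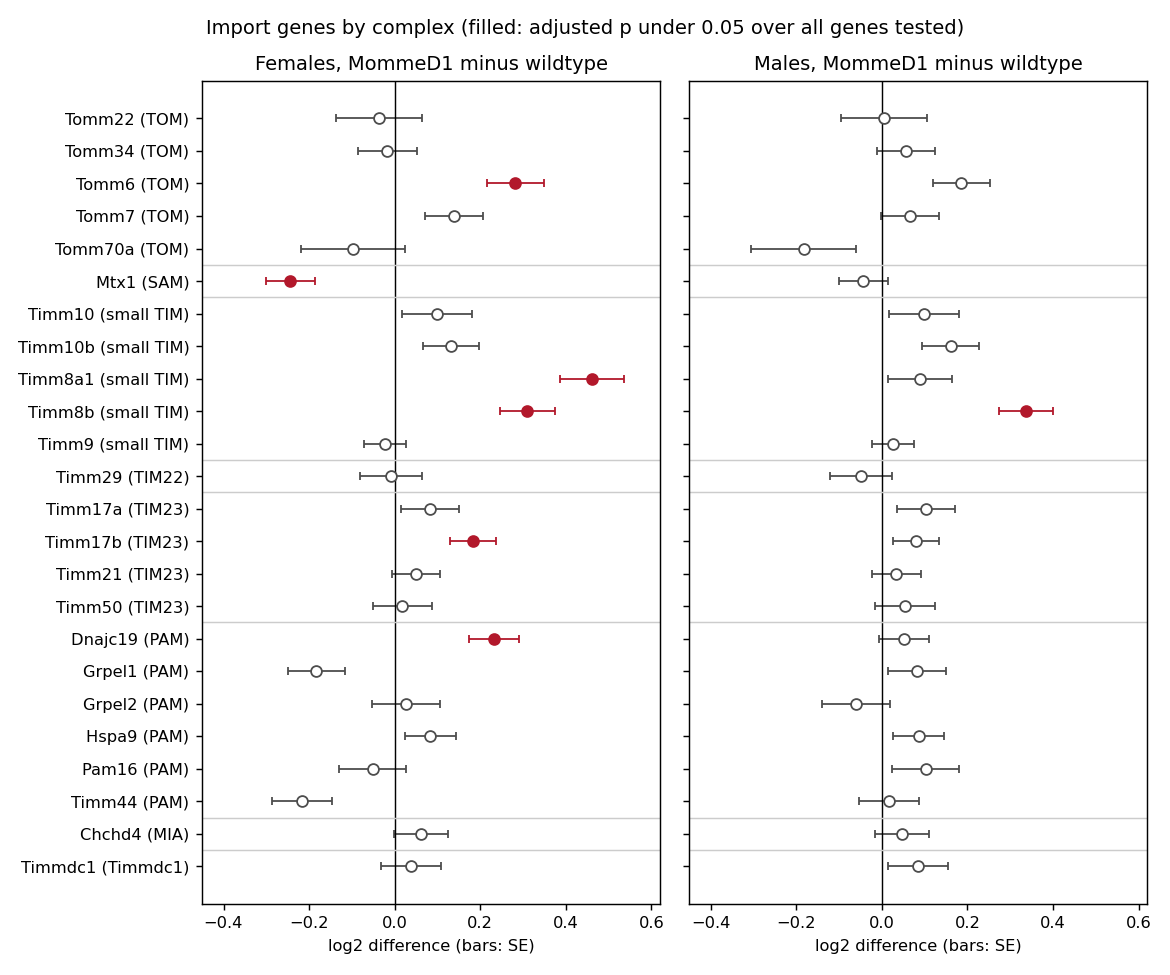
Log2 difference between MommeD1 and wildtype embryos on the horizontal axis for the 24 tested import genes, by complex, with females on the left and males on the right; bars are standard errors and filled points passed an adjusted p of 0.05 over all genes. Timm8b stands at 0.31 in females and 0.34 in males, while Timm8a1 stands at 0.46 in females and 0.09 in males.

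Among the small TIM chaperones, 5 of 7 genes were tested, and 2 of them were higher in MommeD1 females, 1 in MommeD1 males and 3 in the average of the sexes. Timm8b had log2 values of 12.40, 12.36, 12.39 and 12.44 in MommeD1 females, against 12.02, 12.04, 12.19 and 12.10 in wildtype females. In males it had 12.33, 12.37, 12.56 and 12.47 in MommeD1 embryos, against 11.99, 12.06, 12.10 and 12.22 in wildtype embryos. All 8 MommeD1 arrays lay above all 8 wildtype arrays. The difference was 0.31 ± 0.06 in females (SE, 1.24-fold, adjusted p = 0.00665) and 0.34 ± 0.06 in males (1.26-fold, adjusted p = 0.0354, limma), and the effects of the sexes differed by -0.03 ± 0.09 (95% interval -0.22 to 0.16, adjusted p = 0.976). By p-value Timm8b ranked 110 of 6999 genes in females, 8 in males and 21 in the average, where its adjusted p was 2.51e-04.

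The Timm8b difference was 0.35 on chip 1 and 0.27 on chip 2 in females, and 0.32 on chip 1 and 0.35 on chip 2 in males. Without the 3 embryos high in yolk sac transcripts it was 0.32 in females and 0.37 in males (adjusted p = 0.0158 and 0.0418, limma). The call in males was lost without wildtype male 1, 2 or 3, without MommeD1 male 2, 3 or 4, and also without any 1 of the 4 MommeD1 females, which enter through the shared spread, with adjusted p-values up to 0.190.

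Both Timm8b probes were higher in MommeD1 embryos, but by different amounts. The second probe had 12.02, 12.02, 12.00 and 11.95 in MommeD1 females and 11.82, 11.91, 11.94 and 11.94 in wildtype females. It had 12.05, 12.15, 12.03 and 12.11 in MommeD1 males and 11.83, 11.96, 11.88 and 11.92 in wildtype males. Its groups also did not overlap within either sex, and its difference was 0.10 ± 0.05 in females (adjusted p = 0.293), 0.19 ± 0.05 in males (adjusted p = 0.201) and 0.14 ± 0.04 in the average (adjusted p = 0.0239, limma over all kept probes). Within arrays, the genotype difference of the first probe exceeded that of the second by 0.18 (0.21 in females and 0.15 in males). This was the 1 of 15 probe pairs with an adjusted p under 0.05 (two-sided exact permutation test of genotype within sex, p = 0.00204, adjusted p = 0.0306).

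**Figure D2:**
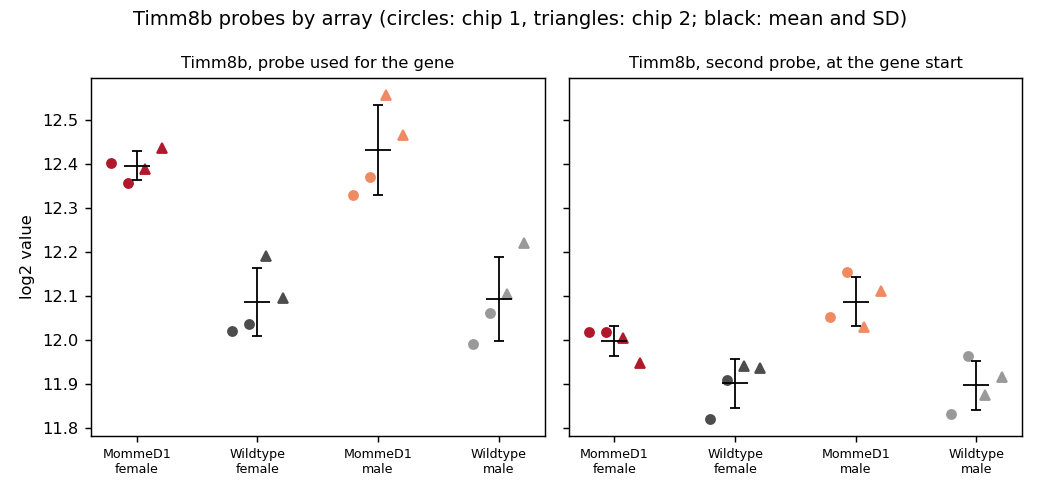
Log2 values of the 2 Timm8b probes on each array, with MommeD1 left of wildtype in each sex; circles are chip 1, triangles chip 2, and the black mark and bar are the mean and SD of 4 arrays. The gap between genotypes is 0.31 and 0.34 on the first probe and 0.10 and 0.19 on the second, in females and males.

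Timm8b starts 52 bases from Sdhd, which encodes a membrane anchor of respiratory complex II and is transcribed in the opposite direction (chr9:50596340-50603849). Sdhd differed by 0.29 ± 0.14 in females (adjusted p = 0.215) and by 0.13 ± 0.14 in males (adjusted p = 0.778), so its spread was wider and it did not pass the test. At its other end Timm8b overlaps Nkapd1 by 81 bases. The probe re-annotation used by the study notes a match of the first Timm8b probe to a transcript on the reverse strand. That transcript is not named, and the first probe was not placed on the genome. Whether this probe lies in the overlap is therefore not known. Nkapd1 differed by -0.05 ± 0.05 in females and by -0.05 ± 0.05 in males. Dlat, further along and encoding a subunit of pyruvate dehydrogenase, differed by -0.02 ± 0.08 in females and 0.16 ± 0.08 in males, neither past the test. Il18, Tex12 and Pih1d2 did not pass the filter.

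Timm8a1, the X-linked relative of Timm8b (chrX:134537256-134541670), had the largest female difference of the 24 import genes. It had 12.15, 12.26, 12.32 and 12.38 in MommeD1 females, against 11.79, 11.86, 11.73 and 11.88 in wildtype females. It had 12.12, 11.92, 12.11 and 11.96 in MommeD1 males, against 12.16, 11.81, 11.87 and 11.91 in wildtype males. The female groups did not overlap and the male groups did. The difference was 0.46 ± 0.08 in females (1.38-fold, adjusted p = 0.00101) and 0.09 ± 0.08 in males (adjusted p = 0.684). The female effect exceeded the male effect by 0.37 ± 0.11 (95% interval 0.15 to 0.60), with an unadjusted p of 0.00249 and an adjusted p of 0.242 in limma, so a difference between sexes was not shown after adjustment. Of all genes, 0.357% passed that comparison and 0 of 24 import genes did, with 5 of the 24 (20.8%) and 7.93% of all genes at an unadjusted p under 0.05.

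Timm10b, a small TIM protein attached to the TIM22 complex, had 3 kept probes that gave much the same difference. The brightest had 9.16, 9.19, 9.19 and 9.12 in MommeD1 females and 9.06, 8.99, 9.10 and 8.99 in wildtype females. It had 9.11, 9.38, 9.23 and 9.31 in MommeD1 males and 9.13, 9.04, 8.99 and 9.24 in wildtype males. The average difference was 0.15 ± 0.05 (adjusted p = 0.0483), and the other probes gave 0.16 and 0.14. The call was lost in 19 of 29 alternative analyses, including 14 of those that left out 1 array.

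The remaining small TIM genes gave no call. By its brightest probe, Timm9 had the smallest spread within groups of the import genes, a residual SD of 0.04 on the log2 scale against a median of 0.10 over all genes. It had 11.76, 11.69, 11.79 and 11.75 in MommeD1 females, against 11.80, 11.77, 11.73 and 11.77 in wildtype females. It had 11.73, 11.77, 11.78 and 11.79 in MommeD1 males, against 11.76, 11.72, 11.79 and 11.69 in wildtype males. The average Timm9 difference on this probe was 0.00 with a 95% interval from -0.07 to 0.07. The other kept Timm9 probes differed by 0.00 and 0.03 in the average, with SDs within groups from 0.03 to 0.22. Timm9 and Timm10 form the chaperone that serves the TIM22 pathway.

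Timm10 had 9.96, 9.84, 9.62 and 9.66 in MommeD1 females, against 9.63, 9.86, 9.60 and 9.59 in wildtype females. It had 9.81, 9.88, 9.86 and 9.73 in MommeD1 males, against 9.84, 9.72, 9.77 and 9.56 in wildtype males. Its groups overlapped in both sexes, with a difference of 0.10 ± 0.08 in females and 0.10 ± 0.08 in males. Timm13, the partner of Timm8 proteins in their chaperone complex, did not pass the filter. It had 6.88, 6.68, 6.86 and 6.58 in MommeD1 females, against 6.97, 6.81, 6.76 and 6.90 in wildtype females. It had 6.58, 6.80, 6.80 and 6.87 in MommeD1 males, against 6.79, 6.73, 6.94 and 6.71 in wildtype males. The 2 probes of Timm8a2, an autosomal copy of Timm8a1, lay below the array median on every array. The brighter had 5.95, 5.94, 5.90 and 5.79 in MommeD1 females, against 5.81, 5.82, 5.91 and 5.83 in wildtype females, and 5.92, 5.98, 5.95 and 5.77 in MommeD1 males, against 5.79, 5.90, 5.95 and 5.87 in wildtype males. The dimmer had 5.72, 5.84, 5.85 and 5.96 in MommeD1 females, against 5.64, 5.69, 5.83 and 5.87 in wildtype females, and 5.81, 5.86, 5.75 and 5.50 in MommeD1 males, against 5.84, 5.85, 5.75 and 5.65 in wildtype males. The groups overlapped on both.

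**Figure D3:**
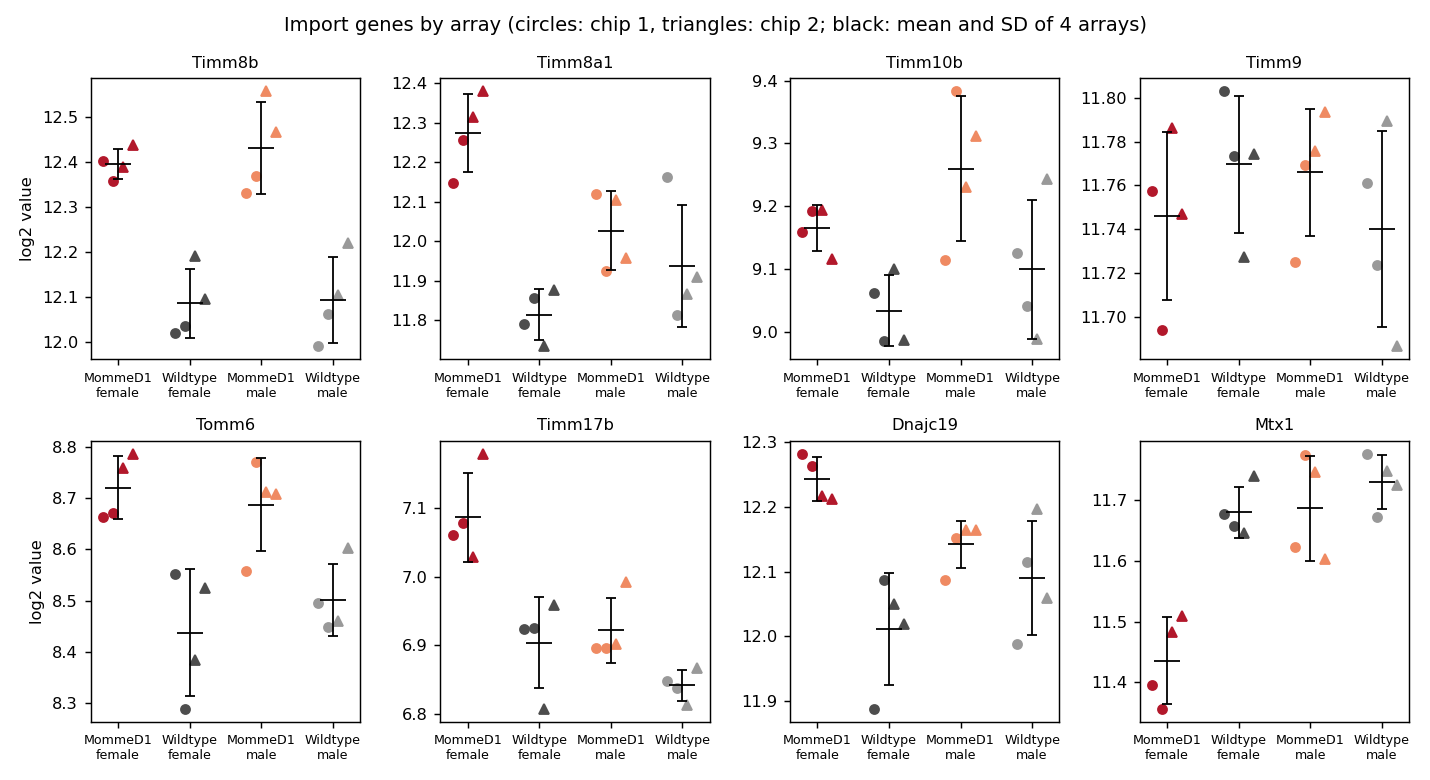
Log2 values on each array of 8 import genes, with MommeD1 left of wildtype in each sex; circles are chip 1, triangles chip 2, and the black mark and bar are the mean and SD of 4 arrays. Timm8b is separated by genotype in both sexes, Timm8a1, Dnajc19 and Mtx1 in females but not in males, and Timm9 (SD within groups of 0.03 to 0.04) in neither.

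Of the TOM genes, 5 of 7 on the platform were tested and Tomm6 was called. Tomm6 (chr17:47686645-47688386), a small subunit known in yeast to stabilize the complex, had 8.66, 8.67, 8.76 and 8.79 in MommeD1 females, against 8.55, 8.29, 8.38 and 8.53 in wildtype females. It had 8.56, 8.77, 8.71 and 8.71 in MommeD1 males, against 8.49, 8.45, 8.46 and 8.60 in wildtype males. The female groups did not overlap, and in males 1 MommeD1 array lay below the highest wildtype array. The difference was 0.28 ± 0.07 in females (1.22-fold, adjusted p = 0.0158), 0.19 ± 0.07 in males (unadjusted p = 0.0122 in limma, adjusted p = 0.295) and 0.23 ± 0.05 in the average (adjusted p = 0.00501). The Tomm6 locus overlaps the genes Frs3, Usp49 and Gm20517 and a noncoding RNA, none of them among the kept genes. Of the other called import genes, Dnajc19 overlaps Fxr1 by 12701 bases. Timm10b overlaps Dnhd1 by 4973 bases and a small nucleolar RNA. These were not kept either. Mtx1, Timm17b and Timm8a1 overlap no annotated gene.

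The receptors and other TOM subunits gave no call in either sex. Tomm7, another small subunit, differed by 0.14 ± 0.07 in females (adjusted p = 0.206) and 0.07 ± 0.07 in males. Tomm22, the central receptor, differed by -0.04 ± 0.10 in females and 0.01 ± 0.10 in males. Tomm70a, the receptor for carrier proteins, had the largest residual SD of the import genes (0.20) and differed by -0.10 ± 0.12 in females and -0.18 ± 0.12 in males. Tomm34, a cytosolic cochaperone, differed by -0.02 ± 0.07 in females and 0.06 ± 0.07 in males, and its dimmer kept probe by 0.10 ± 0.07 and 0.03 ± 0.07. Tomm20 and Tomm40, the presequence receptor and the channel, did not pass the filter.

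Mtx1, a metaxin of the outer membrane sorting machinery (chr3:89209081-89213907), was the import gene called lower. Its brightest probe had 11.40, 11.36, 11.48 and 11.51 in MommeD1 females, against 11.68, 11.66, 11.65 and 11.74 in wildtype females. It had 11.62, 11.77, 11.75 and 11.60 in MommeD1 males, against 11.78, 11.67, 11.75 and 11.73 in wildtype males. The female groups did not overlap and the male groups did. The difference was -0.24 ± 0.06 in females (1.18-fold lower, adjusted p = 0.0149), -0.04 ± 0.06 in males (adjusted p = 0.808) and -0.14 ± 0.04 in the average (adjusted p = 0.0281). The call in the average was lost in 10 of 29 alternatives, and that in females in 3 of 30.

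The 3 Mtx1 probes differed in sign in males. The second probe had 10.37, 10.30, 10.55 and 10.37 in MommeD1 females and 10.59, 10.45, 10.43 and 10.44 in wildtype females, and 10.39, 10.62, 10.52 and 10.68 in MommeD1 males and 10.36, 10.55, 10.44 and 10.37 in wildtype males. The third had 8.51, 8.28, 8.29 and 8.25 in MommeD1 females and 8.47, 8.53, 8.54 and 8.55 in wildtype females, and 8.43, 8.67, 8.65 and 8.65 in MommeD1 males and 8.55, 8.45, 8.40 and 8.53 in wildtype males. Their differences were -0.08 ± 0.07 and -0.19 ± 0.07 in females and 0.12 ± 0.07 and 0.12 ± 0.07 in males, none past the test. Within arrays the brightest probe differed from the second by -0.16 in the average (two-sided exact permutation p = 0.00980, adjusted p = 0.0735 over 15 pairs). With the mean of the kept probes in place of the brightest, Mtx1 differed by -0.17 in females (adjusted p = 0.0419) and by -0.05 in the average (adjusted p = 0.353). Samm50, the core of the sorting complex, and Mtx2 did not pass the filter.

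Of the TIM23 genes, 4 of 5 were tested and Timm17b was called, in females and in the average, having passed the filter through its MommeD1 female arrays alone. Timm17b, an X-linked subunit of the inner membrane channel (chrX:7899336-7907652), had 7.06, 7.08, 7.03 and 7.18 in MommeD1 females, against 6.92, 6.93, 6.81 and 6.96 in wildtype females. It had 6.90, 6.90, 6.90 and 6.99 in MommeD1 males, against 6.85, 6.84, 6.81 and 6.87 in wildtype males. The groups did not overlap in either sex, and all values lay between 6.81 and 7.18, near the filter value of 7. The difference was 0.18 ± 0.05 in females (adjusted p = 0.0423), 0.08 ± 0.05 in males (adjusted p = 0.591) and 0.13 ± 0.04 in the average (adjusted p = 0.0316). The female call was lost in 18 of 29 alternatives, with adjusted p-values up to 0.453, and the call in the average in 10 of 28.

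The autosomal paralog Timm17a differed by 0.08 ± 0.07 in females and 0.10 ± 0.07 in males, without a call. Timm50, the presequence receptor of this complex, differed by 0.02 ± 0.07 in females and 0.05 ± 0.07 in males, and Timm21, which couples it to the respiratory chain, by 0.05 ± 0.06 in females and 0.03 ± 0.06 in males. The other kept probes of Timm21 gave -0.10, 0.02 and 0.07 in females and -0.06, 0.02 and -0.06 in males, without a call. Timm23, the channel subunit, did not pass the filter. Of the TIM22 complex, Timm29 differed by -0.01 ± 0.07 in females and -0.05 ± 0.07 in males, and Timm22 did not pass the filter.

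All 6 genes of the import motor were tested, and Dnajc19 was called. Dnajc19 (chr3:34057280-34081354), the J-protein that stimulates the motor chaperone, had 12.28, 12.26, 12.22 and 12.21 in MommeD1 females, against 11.89, 12.09, 12.05 and 12.02 in wildtype females. It had 12.09, 12.15, 12.16 and 12.16 in MommeD1 males, against 11.99, 12.11, 12.20 and 12.06 in wildtype males. The female groups did not overlap and the male groups did. The difference was 0.23 ± 0.06 in females (1.18-fold, adjusted p = 0.0198), 0.05 ± 0.06 in males (adjusted p = 0.773) and 0.14 ± 0.04 in the average (adjusted p = 0.0319). The female call was lost in 6 of 30 alternatives: with no filter (adjusted p = 0.0617), on each chip alone (0.256 and 0.300), without the 3 embryos high in yolk sac transcripts, without wildtype female 1 (0.0608) and without MommeD1 female 2 (0.0515), and the call in the average was lost in 11 of 29 alternatives. Another 2 Dnajc19 probes did not pass the filter.

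Other motor genes included values below 0 in females that did not pass the threshold. Timm44, which tethers the motor to the channel, averaged 9.45 in MommeD1 females and 9.67 in wildtype females, and these groups did not overlap. Its difference was -0.22 ± 0.07 in females (adjusted p = 0.0623) and 0.02 ± 0.07 in males, and its other 2 probes gave -0.23 and -0.16 in females. In some alternatives Timm44 did pass the threshold in females. These were a filter value of 8, the mean of all kept probes, and trended and robust moderation. It also passed without wildtype female 2 or wildtype male 4. Grpel1, the nucleotide exchange factor of the motor, did not overlap between female groups either, at 10.60, 10.61, 10.40 and 10.27 in MommeD1 females and 10.64, 10.69, 10.64 and 10.65 in wildtype females. Its difference was -0.18 ± 0.07 in females (adjusted p = 0.0943) and 0.08 ± 0.07 in males. Hspa9, the motor chaperone itself, differed by 0.08 ± 0.06 in females and 0.09 ± 0.06 in males, and its dimmer kept probe by -0.05 ± 0.06 and 0.03 ± 0.06. Pam16, which holds the J-protein in check, differed by -0.05 ± 0.08 in females and 0.10 ± 0.08 in males. Its dimmer kept probe differed by -0.0045 ± 0.105 and -0.0034 ± 0.105. Grpel2 differed by 0.03 ± 0.08 in females and -0.06 ± 0.08 in males.

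Chchd4, the oxidoreductase of the MIA relay, differed by 0.06 ± 0.06 in females and 0.05 ± 0.06 in males. Timmdc1, a relative of the TIM23 channel family that assists complex I assembly, differed by 0.04 ± 0.07 in females and 0.08 ± 0.07 in males. The 8 import genes with no kept probe (Mtx2, Samm50, Timm13, Timm22, Timm23, Timm8a2, Tomm20 and Tomm40) had no value above 7 on any array, the highest being 6.97 for Timm13. Since a probe was kept on the strength of any 4 arrays, the 24 tested genes are not all members.

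**Figure D4:**
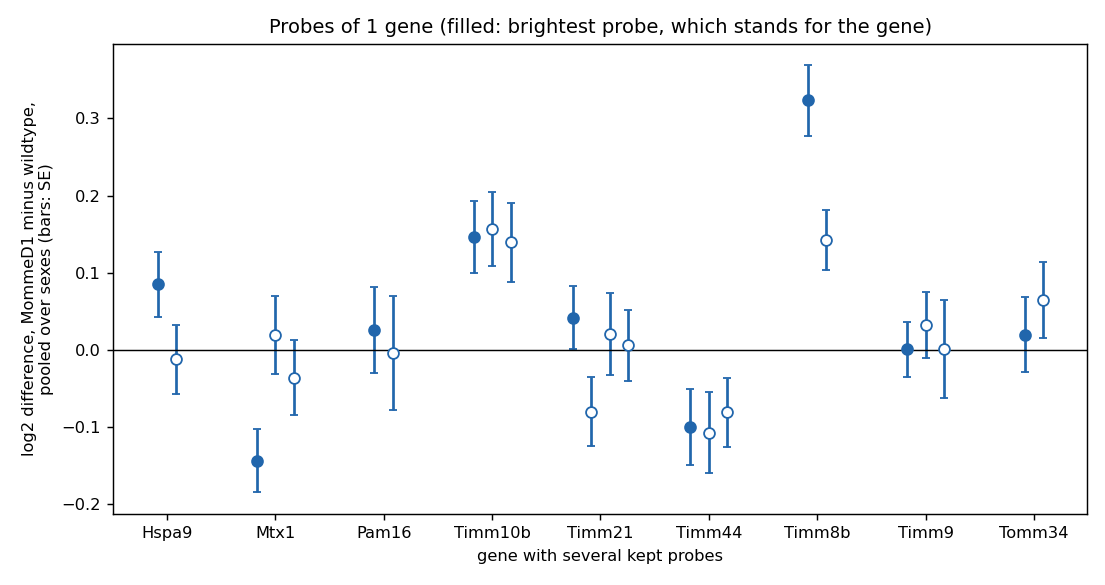
Average log2 difference between MommeD1 and wildtype embryos on the vertical axis for every kept probe of the 9 import genes with several kept probes; filled points are the brightest probe and bars are standard errors. The 3 Timm10b probes (0.14 to 0.16) and the 3 Timm44 probes (-0.11 to -0.08) lie together, whereas the Timm8b probes lie at 0.32 and 0.14 and those of Mtx1 at -0.14, 0.02 and -0.04.

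Probes of 1 gene gave opposite signs of the average difference in 4 of the 15 pairs of brightest and other probe, which came from 9 genes. These 4 pairs were of Hspa9, Mtx1, Pam16 and Timm21. Over all kept probes tested singly, 8 of the 39 import probes passed the adjusted p of 0.05 in the average, among them both Timm8b probes and 1 of the 3 Timm10b probes. Of the 9226 kept probes with a gene, 5.43% were called higher and 5.29% lower in this way. The median residual SD within groups was 0.09 over the import genes and 0.10 over all genes.

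Wildtype females and wildtype males did not differ in any tested import gene after adjustment in limma (0 of 24 called, where 0.0714% of all genes were), and 0 had an unadjusted p under 0.05, where 2.80% of all genes had one. The differences, wildtype females minus wildtype males, ranged from -0.12 for Timm8a1 to 0.14 for Timm44. The X-linked members differed by -0.12 ± 0.08 (Timm8a1) and 0.06 ± 0.05 (Timm17b).

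Other mitochondrial gene groups were read against the same background, with 4.14% of all genes called higher and 3.33% lower in females. In the average these shares were 5.74% and 5.26%. Of 17 tested import partners (proteases, chaperones, porins and insertases), 1 was higher in MommeD1 females, Dnajc15 (0.21 ± 0.06, adjusted p = 0.0487), a second J-protein of the motor. In the average of the sexes Mtch2 (0.21 ± 0.05, adjusted p = 0.0184), an outer membrane insertase, and Dnajc15 were higher and Yme1l1 (-0.19 ± 0.06, adjusted p = 0.0453), an inner membrane protease that degrades import subunits, was lower. None of 3 tested cristae genes passed limma's test in females, males or the average, with 0 also at unadjusted p-values under 0.05.

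Of 67 tested respiratory chain genes, 3 were higher and 1 lower in MommeD1 females, against 4.14% and 3.33% of all genes. In males 0 were called, and 7 (10.4%) had an unadjusted p under 0.05 in limma, against 11.2% of all genes. In females, X-linked Ndufa1 (0.62 ± 0.06, adjusted p = 2.05e-06), Cox5a (0.27 ± 0.06, adjusted p = 0.0124) and Cox6c (0.33 ± 0.08, adjusted p = 0.0139) were higher and Atp5o (-0.31 ± 0.08, adjusted p = 0.0174) was lower. In the average, 5 respiratory chain genes were higher and 1 lower, against 5.74% and 5.26% of all genes. The genes called in females were called again in the same direction, and Ndufa12 (0.16 ± 0.04, adjusted p = 0.0263, limma) was higher. The female effect of Ndufa1 exceeded the male effect by 0.42 ± 0.08 (adjusted p = 0.0247, limma), where 0.357% of all genes passed. The median difference of the 67 genes was 0.06 in females and 0.06 in males, against 0.04 and 0.06 for the import genes. Where 4.14% of all genes were called higher and 3.33% lower, 3 of 70 tested mitochondrial ribosomal proteins were higher and 4 lower in MommeD1 females. These included Mrpl30 (0.34 ± 0.07), Mrps35 (0.28 ± 0.07) and Mrps6 (0.25 ± 0.07), which were higher, and Mrpl2 (-0.31 ± 0.07) and Mrpl35 (-0.24 ± 0.06), which were lower. Their median was 0.02 in females and 0.04 in males, and 0 of them were called in males (6, or 8.57%, at an unadjusted p under 0.05, against 11.2% of all genes). In the average 3 were higher and 2 lower, against 5.74% and 5.26% of all genes. Mrpl30, Mrps35 and Mrps12 (0.23 ± 0.06) were higher, and Mrpl2 and Mrpl1 (-0.17 ± 0.05) were lower.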

How the data were processed

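RNA from 16 embryos was hybridized to Illumina Mouse Ref-8 v2.0 BeadChips. The deposited values are log2 expression per probe, which the authors analysed in R with Beadarray and Limma; their background correction, normalization and versions are not given in the sources used here. The 16 columns have nearly the same distribution, so they were taken as already normalized between arrays. A second deposited table, of unnormalized signals and detection values, has 32 columns that no label ties to an embryo, and these were not used. The number of arrays limits the precision.

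Groups, sexes, replicates and chips came from the labels. Probes over 7 on at least 4 arrays were kept, and the brightest kept probe stood for a gene. The 4 groups were fitted over all genes in limma 3.58.1 (R 4.3.3, lmFit and eBayes), with Benjamini-Hochberg adjustment over 6999 genes and a threshold of 0.05. "The average" weights both sexes equally. Probes of 1 gene were compared by an exact permutation of genotype within sex over 4900 arrangements. Scripts were tested on simulated data. Promoters are RefSeq sequences of GRCm38.p6.

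Members, gene lists and tests were chosen with earlier results of these data known. Values on every array are given for each import gene past the threshold in any comparison, the X-linked members, the Timm8 family with its chaperone relatives and Mtx1, whose probes differed in sign while 1 of them passed; those of Grpel1 were added after their values were seen. From related lists up to 5 called genes a comparison are named. Alternatives covered the filter, the choice of probe, centring, chip, replicate block, array weights, moderation and leaving out arrays.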

Additional observations from a re-analysis of the deposited data

Results flagged for a closer look

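In 6 of 96 groups of 4 arrays, 1 array lay further from the rest than a gap test at the 95% level allows, and chance gives about 1 in 20 groups. Dnajc19 was 12.0876 in MommeD1 male 1, with the other MommeD1 males between 12.152 and 12.1642. Timm17b was 6.9928 in MommeD1 male 4, with the others between 6.8959 and 6.9015. Timm29 was 9.3034 in MommeD1 female 1, with the others between 9.5641 and 9.615, and 9.41 in wildtype male 4, with the others between 9.5682 and 9.5798. Timm10 was 9.8629 in wildtype female 2, with the others between 9.5931 and 9.6272. Tomm7 was 11.2587 in wildtype male 1, with the others between 11.1161 and 11.1361.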

How the results depend on the processing

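Under the 30 alternatives, 312 of 411 values of single genes kept their direction and their side of the threshold, 99 kept the direction alone and 0 reversed. The 6 calls in females became 0 on chip 1 alone, 1 on chip 2 alone and 3 without the 3 embryos high in yolk sac transcripts. The 1 call in males became 0 with no filter, on chip 1 alone, on chip 2 alone and with the male arrays fitted alone. The 7 calls in the average became 3 with no filter, 1 on chip 1 and 2 on chip 2. The 8 single probes became 3 with no filter, 0 on chip 1, 2 on chip 2 and 5 without the 3 embryos. Each chip holds 2 arrays a group, and no filter tests more genes; the cause of the other losses was not tested. Leaving out 1 array gave 4 to 7 calls in females, 0 to 1 in males, 3 to 7 in the average and 4 to 9 single probes. Timm44 joined the female calls without wildtype female 2 or wildtype male 4. The calls in the average were 4 without wildtype male 1 or wildtype male 3 and 3 without MommeD1 male 4. The single probes were 4 without wildtype male 1 or MommeD1 male 4, and 5 without MommeD1 female 1, MommeD1 male 2 or 3, wildtype male 3 or wildtype female 4. Timm8b kept its call in the average in 29 of 29 alternatives (adjusted p = 1.29e-05 to 0.0481, limma). With the replicate block there were 6 calls in females, 1 in males and 6 in the average, where Timm10b had an adjusted p of 0.0588. Same-numbered arrays correlated over 0.1 in 3 of 8 pairs (r = -0.07 to 0.40), and 3 of 8 arrays correlated best with their own number. This check did not show that the numbers pair the embryos, and it cannot exclude pairing or shared litters.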
